A study of Mus musculus with 8 samples.

Results

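Immunoglobulin A, immunoglobulin M, the kappa light chain and the joining chain were the transcripts followed here, together with syndecan 1. Igha, Ighm and Igkc encode antibody constant regions, Jchain encodes the peptide that links antibodies into polymers, and Sdc1 encodes a heparan sulphate proteoglycan of the surface of plasma cells, which epithelial and other cells also make. The members were named genes, and all 5 were found by symbol among the 1329 genes of a table that the authors had reduced to genes significant between 2 groups. The RNA came from the ascending aorta of Fbn1mgR/mgR mice, which make too little fibrillin-1, a protein of elastic fibre microfibrils, and are used to model Marfan syndrome. One group was given DT-061, an oral small molecule that activates protein phosphatase 2A, at 5 mg/kg 2 times a day for 4 weeks from 5 weeks of age. The other group, Vehicle, received the carrier solution (N,N-dimethylacetamide, Kolliphor and water) on the same schedule. Both groups carry the Fbn1mgR alleles, no group without them was analysed here, and Fbn1 itself was not analysed here. Each group had 4 poly-A RNA libraries of 14100000 to 22200000 fragments, and no label says that each came from a separate mouse, so the p-values measure the spread between these libraries, which may be technical in part.

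An antibody is built from heavy and light chains, and its class is set by the constant region joined to the variable region. B cells first make the mu heavy chain, and after class switching may make another, such as alpha. Plasma cells are the secreting end stage: they transcribe heavy chain, light chain and, for polymeric IgA and IgM, the joining chain at very high rates, so that a few cells can give much immunoglobulin RNA in a tissue. In bulk RNA, fewer cells of a type and less RNA per cell cannot be told apart.

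The ends of the secreted chains are shown because they are where the members meet in 1 molecule. The alpha and mu tailpieces each end in a cysteine codon (capitals) next to the last amino acid, which forms the disulphide bond to the joining chain. The kappa chain ends in the cysteine codon (capitals) that bonds to a heavy chain. Each line gives the last 60 coding bases with the stop codon, 5′ to 3′, from the GENCODE M21 transcripts on GRCm38.
Igha, secreted form, chr12:113258768-113258827, minus strand: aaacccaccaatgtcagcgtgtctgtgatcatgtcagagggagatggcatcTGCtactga
Ighm, secreted form, chr12:113420867-113420926, minus strand: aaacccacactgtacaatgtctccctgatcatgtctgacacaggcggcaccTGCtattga
Igkc, chr6:70726698-70726757, plus strand: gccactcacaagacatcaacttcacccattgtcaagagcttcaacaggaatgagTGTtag
Aligned from the stop codon, the alpha and mu ends were identical at 41 of 60 bases (68.3%). Over the whole secreted transcripts of Igha (1100 bases) and Ighm (1493 bases), and over those of Igkc and Jchain, no word of 50 bases occurred in a transcript of another gene, and for Sdc1 30 of 3108 words (0.965%) did. These constant genes were therefore distinct at that length in this annotation, unlike the variable genes, which resemble each other.

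All 5 members fell in the DT-061 aortas, by very different amounts. Igha, Igkc and Jchain were 93.2-fold, 86.5-fold and 85.7-fold lower by the ratio of the group means, Ighm was 15.5-fold lower and Sdc1 was 1.41-fold lower. Vehicle library 1 carried much of the ratios of the antibody genes: without it they were 65.1 for Igha, 39.5 for Igkc, 45.3 for Jchain and 4.79 for Ighm. The ratio of Sdc1 was 1.38 without it, and 1.38 to 1.47 with any single Vehicle library left out. By the group medians the falls were 137-fold, 58.9-fold, 72.5-fold, 5.40-fold and 1.47-fold in the same order of genes, so the near-equal ratios of the means for Igha, Igkc and Jchain are no ground for ranking them. The values are FPKM, fragments scaled to gene length and to the fragments of the library, and fell or rose is used of genes with a limma adjusted p under 0.05 over all 1329 genes. By that rule 95.4% of the table was called and 65% was called lower, and 30.4% higher, so that 5 of 5 says little in a table chosen on this same comparison. Likewise the 2 groups did not overlap in any of the 5 members, and did not overlap in 78.3% of the table (48.2% lower in DT-061). On the log2(FPKM + 1) scale Igha, Igkc and Jchain had the 3 largest falls of the table, Ighm the 22nd and Sdc1 the 747th. By the ratio of the means 12 immunoglobulin variable genes fell further than Igha, and 16 genes, 15 of them variable genes, were listed at 0 in every DT-061 library. On the log2 scale the median log2 change of the genes that fell was -0.88.

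**Figure D1:**
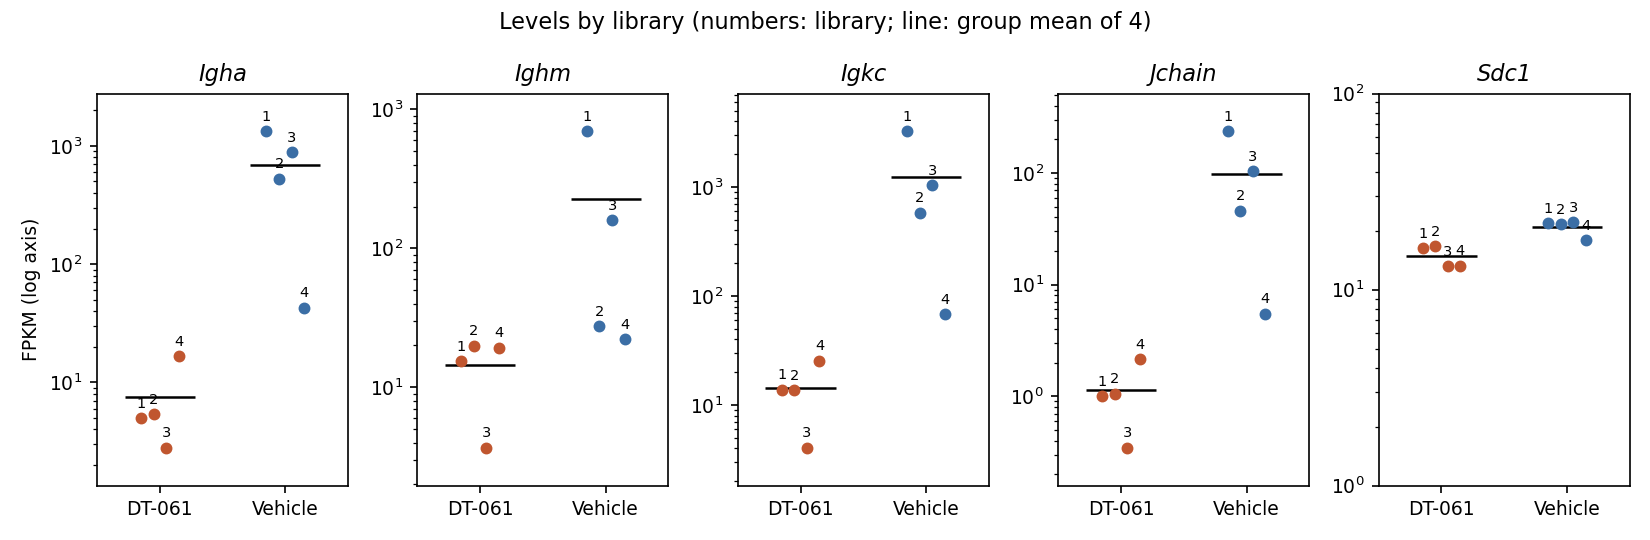
FPKM of the 5 members in each library, on log axes whose range differs between panels, with DT-061 on the left and Vehicle on the right, points numbered by library and a line at the mean of 4. In all 5 panels the DT-061 points lie below the Vehicle points, and Vehicle library 4 lies closest to them.

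Igha, the heavy chain constant gene of IgA, the antibody class of mucosal surfaces (ENSMUSG00000095079, GRCm38 chr12:113254830-113260236), had 4.98, 5.38, 2.80 and 16.7 FPKM in DT-061 libraries 1 to 4, against 1325, 527, 888 and 42.7 FPKM in Vehicle libraries 1 to 4. The groups did not overlap, but Vehicle library 4 was 31.1-fold below Vehicle library 1 and nearest to DT-061 library 4. On the log2(FPKM + 1) scale the change was -5.83 ± 1.04 (SE, n = 4 per group; limma adjusted p = 0.013), and without Vehicle library 4 it was -6.91. The fragments behind these values, recovered from the steps between low values, numbered 42 to 254 in the DT-061 libraries and 623 to 22163 in the Vehicle libraries.

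Igkc, the constant gene of the kappa light chain that most mouse antibodies carry (ENSMUSG00000076609, chr6:70726435-70726966), had 13.8, 13.7, 4.05 and 25.5 FPKM in DT-061 libraries 1 to 4, against 3238, 580, 1038 and 68.0 FPKM in Vehicle libraries 1 to 4. Its groups did not overlap, and its change was -5.54 ± 1.10 (SE, n = 4 per group; limma adjusted p = 0.014). DT-061 library 3 held 19 Igkc fragments, which puts its level between 2.44 and 6.33 FPKM (95% exact Poisson interval, counting error only).

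Ighm, the heavy chain constant gene of IgM, the class that naive B cells carry and that early plasma cells secrete (ENSMUSG00000076617, chr12:113418558-113422730), had 15.4, 19.9, 3.68 and 19.3 FPKM in DT-061 libraries 1 to 4, against 694, 27.6, 160 and 22.2 FPKM in Vehicle libraries 1 to 4. Vehicle libraries 2 and 4 stood only just above DT-061 libraries 2 and 4, and Vehicle library 1 carried most of the difference in the means. The change was -2.79 ± 1.10 (SE, n = 4 per group; limma adjusted p = 0.038). Without Vehicle library 1 it was -1.82, and the call ended when any library but Vehicle 2 or Vehicle 4 was left out (limma adjusted p = 0.055 to 0.10), as it did with 2 other scalings of the libraries (0.065 and 0.061). The fall of Ighm was thus smaller and less certain than those of Igha, Igkc and Jchain.

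Jchain, the joining chain that IgA-secreting and IgM-secreting plasma cells need to form polymers (ENSMUSG00000067149, chr5:88519809-88527891), had 0.9997, 1.06, 0.346 and 2.15 FPKM in DT-061 libraries 1 to 4, against 235, 46.0, 103 and 5.49 FPKM in Vehicle libraries 1 to 4. The groups did not overlap, and the change was -4.68 ± 0.99 (SE, n = 4 per group; limma adjusted p = 0.016). The added pseudocount of 1 is as large as the DT-061 values, so the scale understates this change, which was -5.56 with a pseudocount of 0.1. DT-061 libraries 1 to 4 held 20, 23, 7 and 44 Jchain fragments, against 5305, 1420, 2509 and 108 in Vehicle libraries 1 to 4. The 7 fragments of DT-061 library 3 put its level between 0.139 and 0.713 FPKM (95% exact Poisson interval, counting error only), below the interval of every Vehicle library.

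Sdc1 (ENSMUSG00000020592, chr12:8771323-8793715) had a change of another size. It had 16.2, 16.7, 13.2 and 13.2 FPKM in DT-061 libraries 1 to 4, against 21.8, 21.6, 22.1 and 17.8 FPKM in Vehicle libraries 1 to 4, so the groups did not overlap but lay close together. Its level spanned a 1.24-fold range over the Vehicle libraries, in which Jchain spanned a 42.9-fold range. The change of Sdc1 was -0.47 ± 0.12 (SE, n = 4 per group; limma adjusted p = 0.017) in the deposited scaling, and it was 0.34 when libraries were brought to a common median and -0.19 with quantile normalization, without a call in either. Those scalings move the changes of all genes up by a median of 0.69 and 0.56. Both were computed only from the genes of this table, which were chosen on this same comparison. Both take higher and lower genes to be balanced, which 864 lower and 404 higher genes are not. The counts were made in the deposited scaling, so they cannot show which scaling is right. A direction as small as that of Sdc1 rests on the scaling, and these genes cannot settle it. The much larger falls of Igha, Igkc and Jchain kept their calls in both scalings, at -5.06, -4.74 and -4.10 after median rescaling. Under quantile normalization they were -5.44, -5.40 and -4.07.

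**Figure D2:**
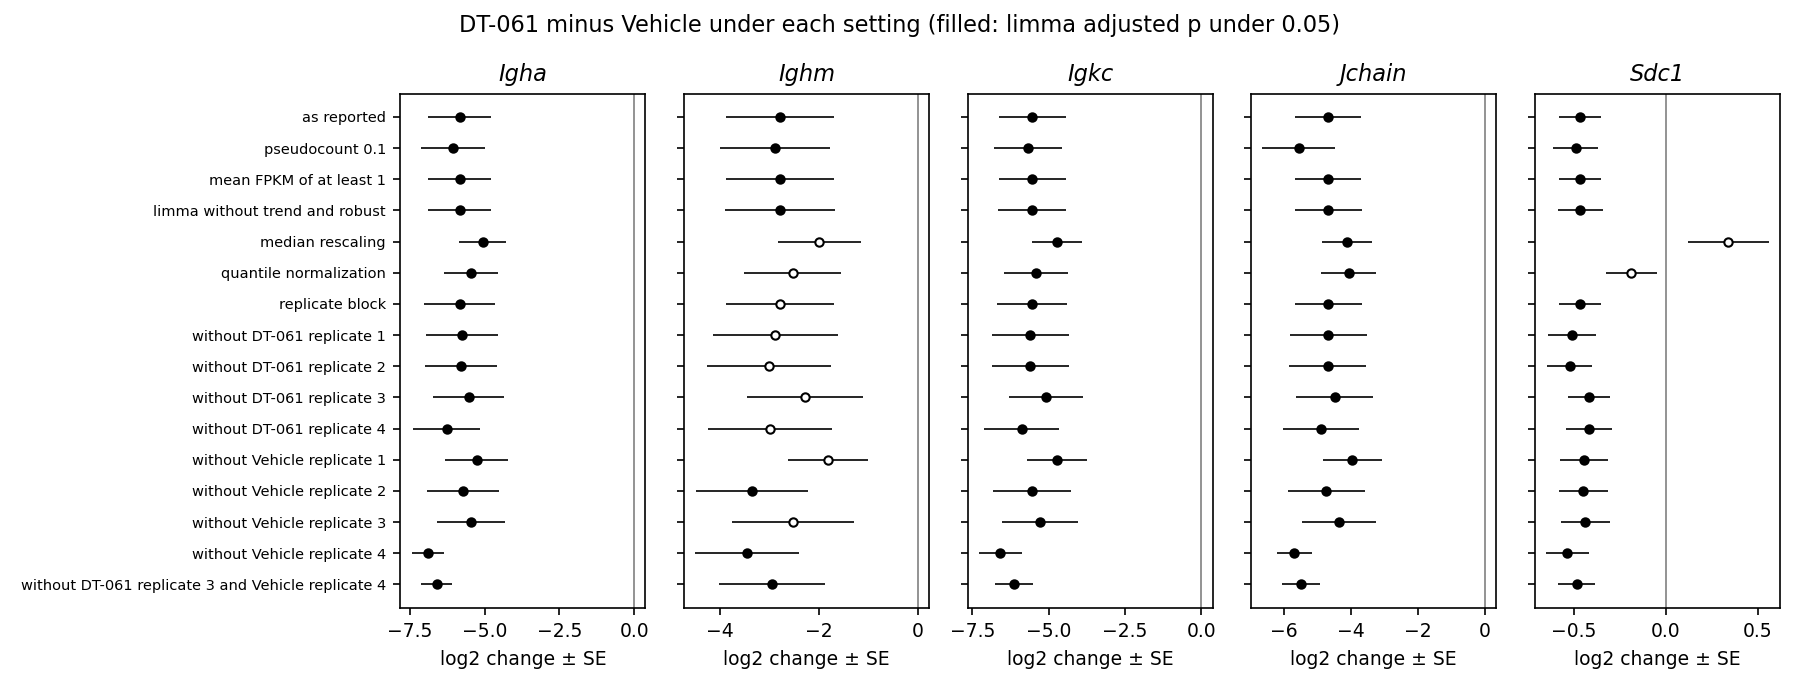
Log2 change (DT-061 minus Vehicle, log2(FPKM + 1), ± SE) of each member under every setting tried, 1 panel a gene, with filled points where the limma adjusted p was under 0.05. Igha, Igkc and Jchain are filled in every row, Ighm is open with both scalings, with the replicate block and with any of 6 of the 8 libraries left out, and Sdc1 is open with the median rescaling, where it is on the positive side, and with quantile normalization.

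The antibody genes varied more between Vehicle libraries than nearly any other gene. The SD of log2(FPKM + 1) over the Vehicle libraries was 2.21 for Igha, 2.31 for Ighm, 2.33 for Igkc and 2.22 for Jchain, above 99.7% to 99.9% of the genes in the table, whose median was 0.27. Over the DT-061 libraries it was 0.94, 1.03, 0.996 and 0.50, against a median of 0.19. Sdc1 had an SD of 0.17 in DT-061 and 0.14 in Vehicle, and was less variable than most of the table.

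The 4 antibody genes put the libraries in nearly the same order. In each of them Vehicle library 1 was highest, followed by libraries 3, 2 and 4, and DT-061 library 3 was lowest of all. With each group's mean subtracted, the Pearson correlation of log2(FPKM + 1) over the 8 libraries was 0.96 between Igha and Igkc, 0.96 between Igha and Jchain and 0.98 between Igkc and Jchain. Ighm followed less closely, at 0.75 with Igha, and Sdc1 stood at 0.50 to 0.59 with the 4 antibody genes. These points share their library and its depth, and the coefficients are a description over 8 libraries.

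**Figure D3:**
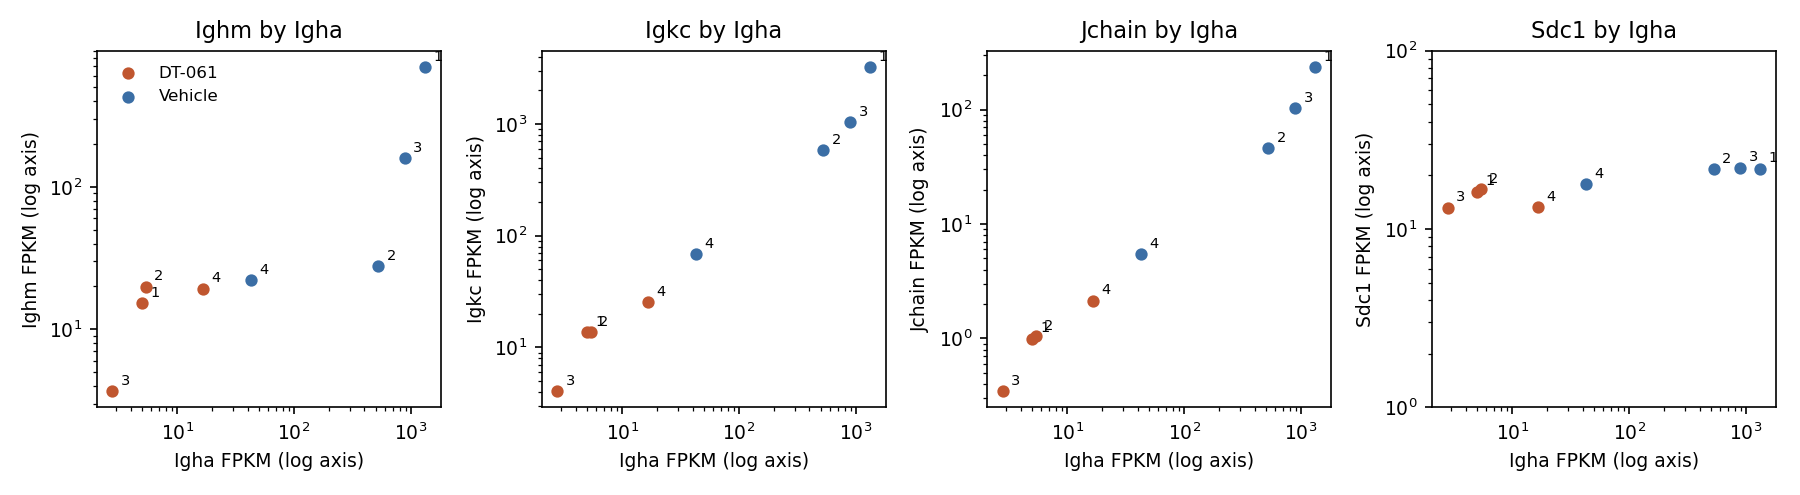
FPKM of Ighm, Igkc, Jchain and Sdc1 against that of Igha, 1 point a library, on log axes, with DT-061 and Vehicle in 2 colours. Igkc and Jchain climb with Igha over both groups, Ighm stays between 15.4 and 27.6 FPKM over 5 libraries in which Igha goes from 4.98 to 527 FPKM, and Sdc1 stays between 13.2 and 22.1 FPKM.

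Of 13 immunoglobulin constant genes listed, 3 were in the table, Igha, Ighm and Igkc, so other heavy chains are outside the sums below. Between Igha and Ighm the mix is given by the share of Igha. It made up 24.5%, 21.3%, 43.2% and 46.3% of the summed Igha and Ighm FPKM in DT-061 libraries 1 to 4, against 65.6%, 95.02%, 84.8% and 65.8% in Vehicle libraries 1 to 4. Of this pair Ighm was thus the more abundant in every DT-061 library and Igha in every Vehicle library, and the shares did not overlap. Which heavy chain was the most abundant of all cannot be read from them. The log2 ratio of Igha to Ighm, each with a pseudocount of 1, was -0.92 ± 0.78 in DT-061 and 2.13 ± 1.56 in Vehicle (SD, n = 4 each), a difference of -3.05. The exact two-sided permutation test gave p = 0.029, the smallest that 4 against 4 libraries allow, and 0.086 after Benjamini-Hochberg adjustment over the 3 ratios tested, so the difference did not pass. At that smallest p a ratio passes over 3 ratios only if another ratio reaches it too. The Igha to Ighm ratio passed in 1 of the 8 cases with a library left out, that without DT-061 library 4 (exact permutation p = 0.043 adjusted over 3 ratios). There its unadjusted exact permutation p was still 0.029, and that of Igha to Jchain was 0.029 as well. Neither outcome thus rests on the Igha to Ighm ratio alone.

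**Figure D4:**
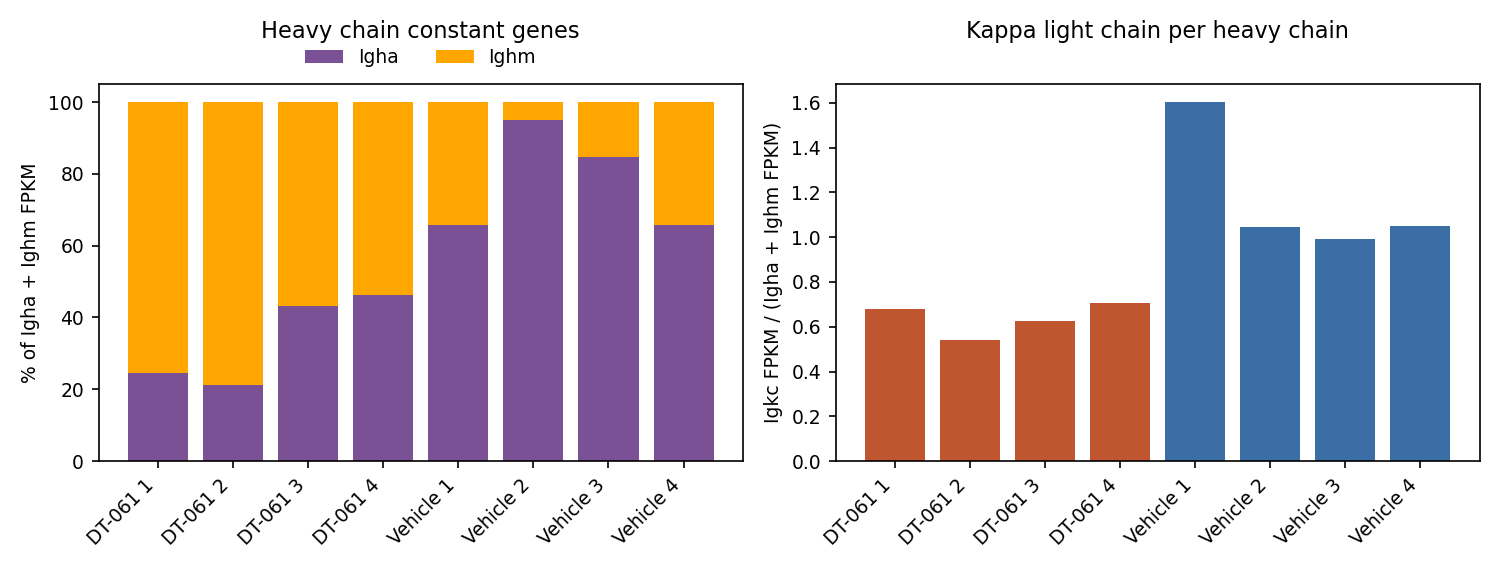
Left, Igha and Ighm as percentages of their summed FPKM in each library; right, Igkc FPKM divided by the summed Igha and Ighm FPKM, with DT-061 libraries before Vehicle libraries. Igha is at 46.3% or less in the DT-061 libraries and at 65.6% or more in the Vehicle libraries, and the Igkc ratio is at most 0.707 with DT-061 and at least 0.991 with Vehicle.

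Igkc was also lower relative to the sum of Igha and Ighm, which leaves out the other heavy chains that kappa chains pair with. Igkc per summed Igha and Ighm was 0.678, 0.540, 0.626 and 0.707 in DT-061 libraries 1 to 4, against 1.60, 1.05, 0.991 and 1.05 in Vehicle libraries 1 to 4, and the groups did not overlap. This ratio was chosen after its values were seen and was not tested. The log2 ratio of Igha to Igkc was -0.87 ± 0.44 in DT-061 and -0.58 ± 0.53 in Vehicle (SD, n = 4 each), and its difference of -0.30 gave an exact permutation p of 0.37 (0.37 adjusted over 3 ratios).

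Jchain kept close to Igha. It stood at 20.1%, 19.6%, 12.4% and 12.9% of the Igha FPKM in DT-061 libraries 1 to 4, against 17.8%, 8.72%, 11.6% and 12.9% in Vehicle libraries 1 to 4, and these ranges overlapped. The log2 ratio of Igha to Jchain with the pseudocount of 1 was 1.80 ± 0.46 in DT-061 and 2.96 ± 0.43 in Vehicle (SD, n = 4 each), with a difference of -1.15 (exact permutation p = 0.057, 0.086 adjusted over 3 ratios). With a pseudocount of 0.1 the difference was -0.50 (0.14, 0.21 adjusted), so its size depends on the pseudocount. Levels are compared between genes per length, and the lengths the authors used can be read from the values. FPKM gave whole fragments for Igha and Igkc at 1034 and 323 bases, the coding lengths of their secreted or only form, and for Jchain and Sdc1 at 1393 and 3157 bases, the full exons of 1 transcript each. For Ighm no length gave whole fragments within 0.03, the nearest being 1424 bases with a distance of up to 0.056, and its fragment numbers are not given here. Secreted and membrane forms of a heavy chain are not separated in such values.

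The variable genes, which encode the antigen-binding ends of the same chains, were in the table because the authors called them between these same groups. A difference between the groups was thus fixed by the choice, and these genes lend no support to the constant genes. Of the 41 immunoglobulin variable genes in the table, 7, 10, 6 and 15 were above 0 in DT-061 libraries 1 to 4, against 41, 41, 41 and 37 in Vehicle libraries 1 to 4. The 20 heavy chain variable genes summed to 0.225 to 4.71 FPKM in DT-061 and 21.7 to 292 FPKM in Vehicle, with Vehicle library 4 again the lowest of its group.

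Other genes of the antibody-secreting programme were given by lists rather than by how they moved. Of 32 genes of antibody assembly and secretion, 7 were in the table, Jchain among them, and all 7 fell, where 65% of all genes were called lower. The groups did not overlap in 6 of them, where 48.2% of all genes were lower without overlap. Apart from Jchain the falls were moderate. Hspa5, the endoplasmic reticulum chaperone BiP that holds unpaired heavy chains, had 145, 151, 150 and 177 FPKM in DT-061 libraries 1 to 4, against 454, 228, 198 and 238 FPKM in Vehicle libraries 1 to 4. The groups did not overlap, Vehicle library 1 stood far above the others, and the change of -0.76 ± 0.25 (limma adjusted p = 0.023) turned to 0.086 with the median rescaling and lost its call with quantile normalization. Fkbp11, a prolyl isomerase of secretory cells, changed by -0.67 ± 0.15 (limma adjusted p = 0.016), which turned to 0.11 with the median rescaling and lost its call with quantile normalization. Derl3, a component of endoplasmic reticulum degradation, had 0.460 ± 0.243 FPKM in DT-061 and 2.91 ± 3.09 FPKM in Vehicle (SD, n = 4), and its fall of 1.16 ± 0.45 on the log2 scale (limma adjusted p = 0.037) lost its call in 6 of 8 cases with 1 library left out and in both scalings. These genes also work in all other secreting cells.

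Of 18 plasma cell identity and surface genes, 8 were in the table, Sdc1 among them, and all 8 fell, where 65% of all genes were called lower. Their median log2 change was -0.95, against -0.58 over all genes and -0.88 over the genes that fell. The groups were apart in 3 of the 8, a share below the 48.2% of all genes that were lower without overlap. Cxcr4, the receptor for Cxcl12 through which plasma cells are held in bone marrow, had 2.35, 1.52, 0.573 and 3.12 FPKM in DT-061 libraries 1 to 4, against 16.2, 6.89, 9.80 and 3.33 FPKM in Vehicle libraries 1 to 4. Its change was -1.71 ± 0.46 (limma adjusted p = 0.018), with Vehicle library 4 only just above DT-061 library 4. Slamf7, a surface receptor of plasma cells, T cells and NK cells, changed by -1.53 ± 0.51 (limma adjusted p = 0.024). Cxcr3, a chemokine receptor of plasmablasts and activated T cells, changed by -1.22 ± 0.36 (limma adjusted p = 0.019). Ly6c2, an antigen of monocytes and of plasma cells, had 0.114 ± 0.128 FPKM in DT-061 and 5.27 ± 7.09 FPKM in Vehicle (SD, n = 4). Its change was -1.86 ± 0.68 (limma adjusted p = 0.030). Quantile normalization ended the calls of Slamf7, Cxcr3 and Ly6c2, and the replicate block ended those of Slamf7 and Ly6c2. With 1 library left out, Ly6c2 lost its call in 6 of 8 cases and Slamf7 in 3 of 8. DT-061 libraries 1 and 3 and Vehicle library 3 were among them for both genes. All of these are shared with other leukocytes, and the plasma cell genes Tnfrsf17, Mzb1 and Irf4 were not analysed here.

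Of 26 B cell genes, 3 were in the table, and Ms4a1, Cd79a and Cd79b were not analysed here. Cd72, a coreceptor of B cells that macrophages also carry, fell by 1.94 ± 0.55 (limma adjusted p = 0.018). H2-Ob, a chain of the B cell molecule that regulates class II loading, fell by 1.31 ± 0.49 (limma adjusted p = 0.033), but lost its call with quantile normalization and without any 1 of the 4 DT-061 libraries or Vehicle library 3. Fcrl1, an Fc receptor-like protein of B cells, did not pass, with 0.0341, 0.0313, 0 and 0.200 FPKM in DT-061 libraries 1 to 4, against 3.6004, 0.353, 0.729 and 0.0694 FPKM in Vehicle libraries 1 to 4. It passed with a pseudocount of 0.1, or without Vehicle library 4. The 3 genes summed to 0.878 to 5.55 FPKM in DT-061 and 4.65 to 38.3 FPKM in Vehicle, so these groups overlapped through Vehicle library 4.

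Of 16 genes listed as Fc and polymeric immunoglobulin receptors and their partners, 5 were in the table and all 5 fell, where 65% of all genes were called lower. The groups were apart in 2 of the 5, below the 48.2% of all genes. Fcgr4, a receptor for IgG on monocytes and macrophages, had 0.942, 1.32, 0.439 and 3.19 FPKM in DT-061 libraries 1 to 4, against 17.1, 11.3, 9.52 and 2.09 FPKM in Vehicle libraries 1 to 4, so that Vehicle library 4 lay inside the DT-061 range (log2 change -2.01 ± 0.56, limma adjusted p = 0.018). Fcer1g, the signalling chain shared by several Fc receptors, fell by 1.31 ± 0.42 (limma adjusted p = 0.023), and Pirb, an inhibitory receptor of myeloid and B cells, by 1.64 ± 0.49 (limma adjusted p = 0.020). Cd300lf, an inhibitory myeloid receptor, fell by 0.97 ± 0.31 (limma adjusted p = 0.022). The call of Fcer1g ended with the median rescaling and without Vehicle library 2, and that of Cd300lf with quantile normalization and without DT-061 library 3 or Vehicle library 2. Trim21, the antibody receptor of the cytosol, changed by -0.59 ± 0.19 (limma adjusted p = 0.024), but turned to 0.13 with the median rescaling and to 0.090 with quantile normalization.

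Of 20 chemokine and survival factor genes for B and plasma cells, 5 were in the table and all 5 fell, where 65% of all genes were called lower. The groups were apart in 3 of the 5, where 48.2% of all genes were lower without overlap. Ccl21a, a chemokine of lymphatic vessels and lymphoid stroma that has near-identical copies in the mouse genome, had 14.97, 17.4, 11.01 and 17.3 FPKM in DT-061 libraries 1 to 4, against 90.3, 44.5, 53.1 and 46.7 FPKM in Vehicle libraries 1 to 4. Here Vehicle library 4 stood with its own group, unlike in the antibody genes, and the change was -1.84 ± 0.24 (limma adjusted p = 0.012). Cxcl12, the ligand of Cxcr4, changed by -0.92 ± 0.29, and Il6, a plasma cell growth factor, by -1.10 ± 0.39 with at most 0.563 FPKM in DT-061 and 3.47 FPKM in Vehicle. Cxcl9 and Cxcl16, chemokines for Cxcr3-bearing and Cxcr6-bearing cells, changed by -1.62 ± 0.40 and -1.298 ± 0.37 (limma adjusted p = 0.017 and 0.018). The calls of Cxcl12 and Cxcl16 ended with the median rescaling and that of Cxcl12 without Vehicle library 3. That of Il6 ended with quantile normalization and in 5 of 8 cases with 1 library left out, Vehicle libraries 1 and 2 and DT-061 libraries 1, 2 and 3.

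**Figure D5:**
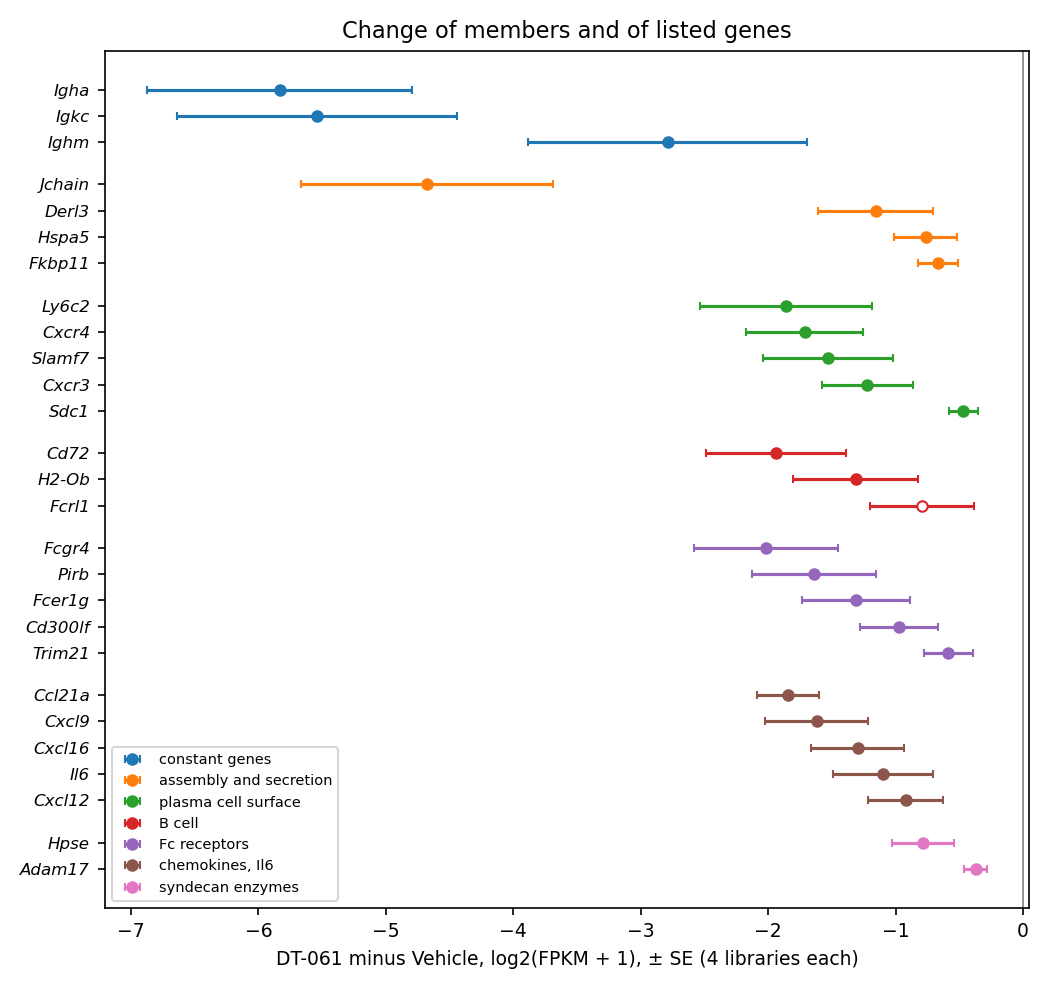
Log2 change (DT-061 minus Vehicle, log2(FPKM + 1), ± SE, 4 libraries each) of the members and of the named genes of 7 lists, coloured by list, with filled points where the limma adjusted p was under 0.05. Igha, Igkc and Jchain lie between -4.68 and -5.83, the other genes between -2.79 and -0.37, and only Fcrl1 is open.

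Around Sdc1, 3 of 21 syndecan and heparan sulphate genes were in the table, Sdc1 itself and 2 others. All 3 fell without overlap of the groups, where 65% of all genes were called lower and 48.2% were lower without overlap. Adam17, a metalloproteinase that sheds surface proteins, syndecan 1 among them, had 12.3, 11.995, 11.4 and 11.1 FPKM in DT-061 libraries 1 to 4, against 16.3, 15.3, 16.4 and 13.7 FPKM in Vehicle libraries 1 to 4, close in shape to Sdc1. Its change was -0.37 ± 0.09 (limma adjusted p = 0.016) and turned to 0.42 with the median rescaling, and it lost its call with quantile normalization. Hpse, the heparanase that cuts heparan sulphate, changed by -0.78 ± 0.24 (limma adjusted p = 0.021) and turned to 0.11 with quantile normalization, and its call was lost with the median rescaling too. Among epithelial genes, another possible source of Sdc1, 2 of 18 were in the table: Dsp, a desmosomal protein, rose by 0.77 ± 0.23 (limma adjusted p = 0.020), and Cdh1, the epithelial cadherin, stood at 0.0722 FPKM or less in DT-061 and 0.508 FPKM or less in Vehicle, with a change of -0.33 ± 0.12 (limma adjusted p = 0.030) that turned to 0.056 with quantile normalization. The Cdh1 call was also lost with the median rescaling and in 7 of 8 cases with 1 library left out, all but that of Vehicle library 4.

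The genes most like Igha and most like Sdc1 were different. By the correlation of log2(FPKM + 1) with group means subtracted, over 8 libraries and with variable genes left out, the 5 genes nearest to Igha were Siglech (0.99), Ccl5 (0.97), Cxcr3 (0.97), Fcgr4 (0.97) and Jchain (0.96). Siglech is a receptor of plasmacytoid dendritic cells, and was at 0.384 FPKM or less in DT-061 and 1.10 FPKM or less in Vehicle, with a change of -0.52 that turned to 0.17 with quantile normalization. Ccl5, a chemokine of T and NK cells, fell by 2.62 ± 0.47 (limma adjusted p = 0.013). The 5 nearest to Sdc1 were Hoxc4 (0.90), Ldb3 (0.88), Tnfrsf14 (0.87), Ssc5d (0.87) and Adam17 (0.86). Ldb3, a Z-disc protein of muscle, rose by 0.30 ± 0.07 (limma adjusted p = 0.016), against the direction of Sdc1, since the measure ignores the difference between the groups. Hoxc4, a homeobox gene, was at 0.597 ± 0.245 FPKM even in Vehicle, against 0.117 ± 0.107 in DT-061 (SD, n = 4). Vehicle library 4 was the lowest Vehicle library in Igha, in Sdc1 and in each of the genes named as nearest to them. A single library can thus weigh heavily on these coefficients, and its weight was not tested.

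Promoters are shown for Jchain and Sdc1, the 2 members with an entry in the RefSeq table (GRCm38.p6), because these genes, both known from plasma cells, had such unequal values. The cells that gave the Sdc1 signal were not identified. Each run covers 250 bases before to 50 bases after the gene's start, 5′ to 3′ on the gene's strand, with matches to the motifs in capitals.
Jchain, chr5:88527848-88528147, minus strand: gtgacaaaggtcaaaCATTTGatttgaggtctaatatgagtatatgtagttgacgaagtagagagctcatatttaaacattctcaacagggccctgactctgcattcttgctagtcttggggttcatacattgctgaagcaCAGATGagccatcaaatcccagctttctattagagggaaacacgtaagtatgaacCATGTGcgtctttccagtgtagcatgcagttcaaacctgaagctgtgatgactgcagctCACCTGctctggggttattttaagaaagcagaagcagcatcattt
Sdc1, chr12:8771146-8771445, plus strand: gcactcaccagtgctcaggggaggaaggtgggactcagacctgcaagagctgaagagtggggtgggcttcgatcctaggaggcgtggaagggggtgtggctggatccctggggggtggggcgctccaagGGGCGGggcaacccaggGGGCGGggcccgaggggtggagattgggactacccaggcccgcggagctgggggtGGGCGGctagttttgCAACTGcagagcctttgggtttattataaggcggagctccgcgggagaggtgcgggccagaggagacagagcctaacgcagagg
The motifs were the octamer ATGCAAAT, the TATA box TATAAA, the GC box GGGCGG and the E-box CANNTG, each on both strands. The Jchain run held 4 E-boxes and the Sdc1 run 3 GC boxes and 1 E-box. Over all 32851 promoter runs, 72.3% held an E-box, 35.7% a GC box, 13.6% the TATA box and 1.74% the octamer, and neither run shown held the last 2. The Jchain run was 42.3% G and C and the Sdc1 run 66.3%, against a median of 52.7%. These are descriptions of letters and not of binding.

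Markers of other cells are given beside the antibody genes, in a table of which 65% was called lower and 30.4% higher. All 5 monocyte and macrophage markers in the table, of 19 listed and with Ly6c2 among them, fell, and their summed level was 14.3 to 77.0 FPKM in DT-061 and 87.1 to 389 FPKM in Vehicle, lowest in DT-061 library 3 and, within Vehicle, in library 4. Of the 14 T and NK cell markers in the table, of 24 listed, 13 fell, and the sum was 2.96 to 9.92 FPKM in DT-061 and 8.24 to 90.7 FPKM in Vehicle, with Vehicle library 1 highest and Vehicle library 4 lowest of its group. The 7 smooth muscle markers in the table, of 10 listed, rose without overlap of the groups. Over all 1329 genes, 1041 (78.3%) did not overlap. Of these, 641 (48.2% of all genes) were lower with DT-061 and the rest were higher. The smooth muscle markers summed to 16095 to 24364 FPKM in DT-061 and 8764 to 13913 FPKM in Vehicle. Their sum was highest in DT-061 library 3 and lowest in Vehicle library 1. The 3 lymphoid stroma markers, of 13 listed, fell, and summed to 11.7 to 18.6 FPKM in DT-061 and 47.2 to 92.1 FPKM in Vehicle, nearly all of it Ccl21a. Of the other two, Coch turned to 0.16 with quantile normalization and lost its call with the median rescaling, and Tnfsf11, at 1.07 FPKM or less, lost its call in both scalings and in 7 of 8 cases with 1 library left out, all but that of Vehicle library 4. The part of these cell types in the results for the antibody genes was not tested. Without Vehicle library 1, highest in the immune lists and lowest in smooth muscle markers, Igha changed by -5.26, Igkc by -4.73 and Jchain by -3.95, with their calls kept, and the Ighm call ended (limma adjusted p = 0.064). Without DT-061 library 3 and Vehicle library 4 Igha changed by -6.60, but Vehicle library 4 is the one nearest to DT-061 in every member, so leaving it out widens the difference by construction.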

How the data were processed

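The deposited values are FPKM made by the authors, 1 column per library, for genes that the deposited table presents as significant, by a rule not stated in these sources. Per the submitters' processing notes the tools included featureCounts 1.5.0-p3, HISAT2 2.0.5 and StringTie 1.3.3b, with mm10 as the build and no roles given. The strand setting is not given, so overlapping genes cannot be told apart. Symbols matched 1328 of 1329 genes, and positions came from GENCODE M21 (GRCm38, the same build as mm10). Where the length is known, FPKM times length moves in steps of 1 fragment, and depth was estimated from such genes: 14400000 to 15600000 fragments per DT-061 library and 14100000 to 22200000 per Vehicle library, with 90.5% to 100% of preselected low values whole within 0.03. Of the low values of immunoglobulin variable genes, 20% to 50% were whole, so fragments are not given for them. The length taken for each member was the one that brought its fragments nearest to whole numbers in the 4 lowest libraries. For Ighm no length did so within 0.03.

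limma 3.58.1 in R 4.3.3 (trend and robust) was fitted to log2(FPKM + 1) over the whole table with the treatment as the only term. Benjamini-Hochberg adjustment was over 1329 genes. The fit was also run on simulated data in which most genes were unchanged and the changed genes all rose. That setting is unlike this table, so the run cannot vouch for the calls here. Ratios were compared by exact permutation over 70 assignments of the libraries. Because the table was chosen on this comparison, its p-values are not independent evidence. The members and lists were chosen with earlier results of these data known. Named were the members, list members in the table (the 4 largest changes with a mean FPKM of at least 1 where a list had more than 5 there) and the 5 genes most like Igha and Sdc1. Some of these are given only in list counts. The settings varied were the pseudocount (0.1), a floor on the mean FPKM (1), plain limma, median rescaling, quantile normalization, a replicate block, and leaving out libraries. Median rescaling and quantile normalization used only the genes of the table, so they cannot test how whole libraries should be scaled.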

Additional observations from a re-analysis of the deposited data

Results flagged for a closer look

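Of 106 groups of 4 libraries checked, 8 had a library far from the other 3 by Dixon's test, where chance flags about 1 in 20. DT-061 library 3 was low in Ighm (2.23 on the log2(FPKM + 1) scale), Cxcl16 (2.07), Mpeg1 (1.26) and Ctss (3.59). Vehicle library 4 was low in Sdc1 (4.24) and in Hoxc4 (0.30), the gene whose pattern was nearest to that of Sdc1. Vehicle library 1 was high in Hpse (2.72). DT-061 library 4 was high in the log2 ratio of Igha to Jchain (2.49).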

How the results depend on the processing

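Igha, Igkc and Jchain kept their direction and call under all 15 alternatives. With 1 library left out, Ighm changed by -3.45 to -1.82 and lost its call in 6 of 8 cases, and 4 or 5 of the 5 members passed. With the median rescaling 3 members passed: Ighm was -1.99 without a call, and Sdc1 turned to 0.34, as Hspa5 (0.086), Fkbp11 (0.11), Trim21 (0.13) and Adam17 (0.42) turned to higher. With quantile normalization 3 members passed: Ighm was -2.53 and Sdc1 -0.19, both without a call, and Trim21 (0.090), Coch (0.16), Hpse (0.11), Cdh1 (0.056) and Siglech (0.17) turned to higher. The cause was not tested. Deviations from the group means correlated at 0.18, -0.11, -0.052 and -0.47 between libraries of the same replicate number. Libraries of different numbers were not compared, so these values cannot show whether the numbers pair the libraries. With the replicate block Ighm, at -2.79, had an adjusted p of 0.060 by limma, and the other 4 members kept their calls. Besides the members, 8 genes lost their calls with the block: Ly6c2, Slamf7, Trim21, Cxcl12, Tnfsf11, Cdh1, Siglech and the T cell marker Trbc2. With 1 library left out, the log2 ratio of Igha to Ighm differed by -3.45 to -2.36 and that of Igha to Jchain by -1.39 to -0.98, and both passed only without DT-061 library 4 (exact permutation p of 0.043 adjusted). Neither could have passed there without the other at the smallest p. The sign-flip test of 4 pairs cannot go below 0.13. Leaving out DT-061 library 3 and Vehicle library 4 together was added after the data were seen: the ratio of Igha to Ighm then differed by -3.66 (exact permutation p = 0.10, the smallest 3 against 3 allow). Among the 5 members depth limits Jchain most, with 7 fragments in DT-061 library 3.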
